A study of Mus musculus with 6 samples.

Results

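Transcripts of 8 genes that serve oligodendrocyte lipid synthesis, iron handling and maturation were followed in the prelimbic cortex (PL) of stressed mice. The genes were Fa2h, Ugt8a, Trf, Bcas1, Enpp6, Prr18, Tmem125 and Ndrg1, each read through 1 probe, among 25697 probes on the array. They were picked from the study's tables of selected genes, which had been made on these same arrays at a 1.2-fold criterion. Fa2h, Ugt8a, Trf, Bcas1, Prr18 and Tmem125 stood in the tables of both stress comparisons, Enpp6 in that of CRST+RS5 against CRST, and the Ndrg1 probe, spelled Ndrl there, in that of CRST against CON. The group differences below are therefore descriptions of how the genes were chosen, and no test is given for them.

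Gene expression was measured on 6 Illumina bead arrays, 2 for each of 3 groups of male C57BL/6 mice aged 3 months. CON mice were never restrained. The CRST treatment was daily restraint of 2 h on 14 days, and CRST+RS5 mice had this treatment and then daily restraint of 5 min on 14 days. The PL was collected on post-stress day 22, and each array carried RNA pooled from 6 to 7 animals, so n = 2 counts pools. The comparisons asked which transcripts differed after long restraint, and which differed when short daily restraint was added.

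Oligodendrocytes wrap axons of the brain in myelin, a membrane rich in galactolipids and cholesterol. They make galactosylceramide and its hydroxylated forms, hold much of the iron of the brain, and pass through a short premyelinating stage between precursor and mature cell. The 8 genes were read along this order, from lipid enzymes to iron, stage markers and less studied oligodendrocyte transcripts. In pooled tissue, fewer cells of a type and less RNA per cell cannot be told apart.

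Between 12645 and 13407 probes were detected per array, and 13083 probes were kept because both arrays of 1 group or more detected them, all 8 genes among them. The median deposited signal lay between 185.6 and 230, with the lowest median on CRST replicate 1 and the highest on CRST replicate 2. Deposited intensities quoted below are not corrected for this difference in overall brightness. The arrays of a group correlated at r = 0.997 in CON, 0.995 in CRST and 0.996 in CRST+RS5 across the kept probes, which are not independent replicates. Of 17 marker genes of mature oligodendrocytes, 11 had a probe with a name, and all 11 were detected on all 6 arrays.

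Fa2h encodes the fatty acid hydroxylase that supplies hydroxylated fatty acids to myelin galactolipids. Its log2 signal after quantile normalization was 11.05 and 11.15 on the CON arrays, 10.90 and 12.18 on the CRST arrays, and 10.74 and 11.14 on the CRST+RS5 arrays, with replicate 1 first in each pair. CRST replicate 2 stood above every other array, and CRST replicate 1 stood below both CON arrays. The deposited signal intensity on CRST replicate 2 was 5737, against 1593 to 2457 on the other 5 arrays. The group means gave 0.44 ± 0.33 (log2, moderated SE, n = 2 pools per group) for CRST minus CON and -0.60 ± 0.33 for CRST+RS5 minus CRST. Leaving out CRST replicate 2 turned these differences to -0.20 and 0.039.

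Ugt8a encodes ceramide galactosyltransferase, which makes galactosylceramide, the main myelin glycolipid. Its log2 signal was 10.57 and 10.47 in CON, 10.30 and 11.34 in CRST, and 10.07 and 10.37 in CRST+RS5. The CRST arrays lay on either side of the CON arrays, whereas both CRST+RS5 arrays were below both CON arrays. The means differed by 0.30 ± 0.27 in CRST minus CON, -0.60 ± 0.27 in CRST+RS5 minus CRST, and -0.30 ± 0.27 in CRST+RS5 minus CON. When CRST replicate 2 was left out, the first became -0.23 and the second -0.074.

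The sequence before the Ugt8a start is shown beside that of Prr18 below, because these genes had a window with bases outside the annotated gene. The windows hold the 250 bases before an annotated start in RefSeq of GRCm38.p6, and the bases outside the annotated gene are printed, at chr3:125938683-125938902 on the minus strand for Ugt8a and chr17:8340156-8340405 on the plus strand for Prr18. Windows were matched for 4 of the 8 genes (Ugt8a, Tmem125, Enpp6 and Prr18). Those of Tmem125 and Enpp6 lay within the annotated gene and are not printed. Capitals mark the GC box letters GGGCGG and the SOX core letters ACAAT on either strand.
Ugt8a: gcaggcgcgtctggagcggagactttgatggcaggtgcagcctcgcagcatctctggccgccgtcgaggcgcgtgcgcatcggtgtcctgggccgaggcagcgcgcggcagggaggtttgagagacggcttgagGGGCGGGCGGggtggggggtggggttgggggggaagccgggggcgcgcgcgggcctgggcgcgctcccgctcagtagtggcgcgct
Prr18: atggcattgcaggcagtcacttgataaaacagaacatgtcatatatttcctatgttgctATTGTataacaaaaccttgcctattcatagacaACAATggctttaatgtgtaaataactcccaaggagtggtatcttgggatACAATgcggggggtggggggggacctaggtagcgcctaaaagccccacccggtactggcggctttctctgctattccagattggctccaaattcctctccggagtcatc
The Ugt8a stretch had a GC content of 75% with 28 CpG, 2 overlapping GC boxes and 0 SOX cores. The Prr18 stretch had a GC content of 46.4% with 5 CpG, 0 GC boxes and 3 SOX cores. Among 32851 windows of 250 bases, 32.7% held a GC box and 27.7% a SOX core. The motifs were chosen after the values were seen, and a match in letters is no evidence of binding. A second annotated start of Prr18 had a window with a GC content of 64.8%, 19 CpG, 2 GC boxes and 0 SOX cores, which lies within the annotated gene and is not printed.

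Trf encodes transferrin, the iron carrier that oligodendrocytes make within the brain. On the log2 scale its signal was 11.73 and 11.82 in CON, 11.41 and 12.72 in CRST, and 11.34 and 11.65 in CRST+RS5. The arrays of CRST were the farthest apart of any group, and both CRST+RS5 arrays were below both CON arrays. The deposited intensity was 8328 on CRST replicate 2 and 2473 on CRST replicate 1. CRST minus CON was 0.29 ± 0.33 and turned to -0.36 without CRST replicate 2. The difference between CRST+RS5 and CRST was -0.57 ± 0.33 and turned to 0.082 without that array.

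Bcas1 marks oligodendrocytes that are forming myelin. The 2 pools of each group gave log2 signals of 13.56 and 13.40 in CON, 13.36 and 14.28 in CRST, and 13.34 and 13.36 in CRST+RS5. The arrays other than CRST replicate 2 were close to each other for this gene. Bcas1 differed by 0.34 ± 0.24 in CRST minus CON and by -0.47 ± 0.24 in CRST+RS5 minus CRST. With CRST replicate 1 as the sole CRST array, these values were -0.12 and -0.0031.

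Enpp6 encodes a choline phosphodiesterase of newly differentiating oligodendrocytes. The log2 signal of Enpp6 was 8.78 and 8.73 in CON, 8.69 and 9.34 in CRST, and 8.70 and 8.50 in CRST+RS5. As for Fa2h, CRST replicate 2 was the highest array, but the lowest was CRST+RS5 replicate 2. The CRST mean exceeded the CON mean by 0.26 ± 0.18, a fold of 1.196, and CRST+RS5 minus CRST was -0.41 ± 0.18. Both were small without CRST replicate 2, at -0.066 and -0.088.

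Prr18 encodes a proline-rich protein. Signals of this gene on the log2 scale were 11.43 and 11.48 in CON, 11.17 and 12.43 in CRST, and 11.20 and 11.40 in CRST+RS5. The 2 CON arrays differed by 0.043, the 2 CRST arrays by 1.26. Prr18 had a CRST minus CON difference of 0.34 ± 0.32, its CRST+RS5 minus CRST difference was -0.50 ± 0.32, and without CRST replicate 2 they were -0.29 and 0.13.

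Tmem125 encodes a transmembrane protein. On the 6 arrays its log2 signal was 8.67 and 8.35 in CON, 8.57 and 9.13 in CRST, and 8.38 and 8.47 in CRST+RS5. It was the exception among the 8 genes in that CRST replicate 1 lay between the CON arrays. Its CRST minus CON difference was 0.33 ± 0.17 with all arrays and 0.054 without CRST replicate 2. Its CRST+RS5 minus CRST difference was -0.42 ± 0.17 with all arrays and -0.14 without it, and both CRST+RS5 arrays stayed below both CRST arrays.

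Ndrg1 encodes a cytoplasmic protein whose loss causes a demyelinating neuropathy in humans. The log2 signal of the probe spelled Ndrl was 10.37 and 10.52 in CON, 10.12 and 11.31 in CRST, and 10.43 and 10.65 in CRST+RS5. This probe was lowest on CRST replicate 1, and CRST+RS5 replicate 2 was above both CON arrays. The differences were 0.27 ± 0.30 for CRST minus CON, -0.18 ± 0.30 for CRST+RS5 minus CRST, and 0.087 ± 0.30 for CRST+RS5 minus CON. If CRST replicate 2 was left out, the first was -0.33 and the second 0.42.

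A second Ndrg1 probe, named in the table of CRST+RS5 against CRST, was dimmer and was given beside the first. This probe had log2 signals of 9.68 and 9.83 in CON, 9.51 and 10.31 in CRST, and 9.56 and 9.62 in CRST+RS5. Both probes were highest on CRST replicate 2 and lowest on CRST replicate 1. For this probe CRST minus CON was 0.16 ± 0.21 and CRST+RS5 minus CRST was -0.32 ± 0.21, and without CRST replicate 2 they were -0.25 and 0.087. The probes had opposite signs in CRST+RS5 minus CON, at 0.087 and -0.16.

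**Figure D1:**
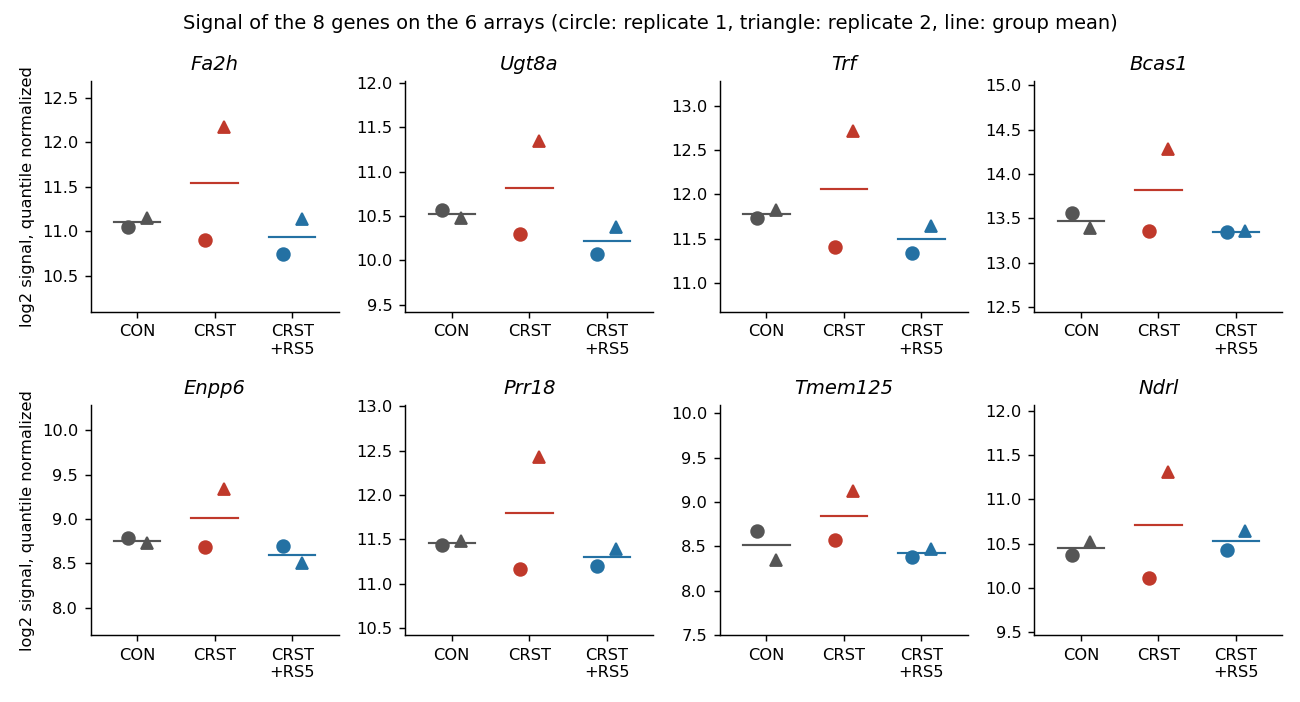
Log2 quantile-normalized signal (vertical axis, the same span in every panel) of the 8 genes in CON, CRST and CRST+RS5, with circles for replicate 1, triangles for replicate 2 and lines for the mean of the 2 arrays. The CRST triangle is the highest point in all 8 panels, and the CRST circle lies below both CON points in all panels but that of Tmem125.

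Across the 8 genes, CRST minus CON had a median of 0.32 on the log2 scale and a range of 0.26 to 0.44. Of the 8 genes, 7 were at least 1.2-fold higher, against 0.78% of the 13083 kept probes, and 0 were lower by that fold, against 0.864%. In either direction 1.64% of kept probes passed it, and this contrast served to choose 7 of the genes. At the threshold, Ndrg1 lay just inside at 1.203-fold and Enpp6 just outside at 1.196-fold. After background correction by neqc, Enpp6 stood at 0.34 on the log2 scale, where 1.2-fold is 0.263. The CRST arrays overlapped the CON arrays in 8 of 8 genes, against 70.7% of kept probes. The groups were apart with CRST higher in 15% of kept probes and with CRST lower in 14.3%. The SD of the 2 CRST arrays was 0.40 to 0.92, larger than the difference of means in every gene. The moderated SE draws this spread toward that of all probes.

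Leaving out CRST replicate 2 turned the median of CRST minus CON to -0.21, with a range of -0.36 to 0.054. Trf, Ndrg1 and Prr18 were then lowest, at -0.36, -0.33 and -0.29, and Tmem125 was the only gene above 0. Leaving out CRST replicate 1 gave a median of 0.84 and a range of 0.58 to 1.08. The sign of the difference thus differed between the 2 CRST pools in 7 of 8 genes.

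CRST+RS5 minus CRST had a median of -0.48 and a range of -0.60 to -0.18. Of the 8 genes, 7 were at least 1.2-fold lower, against 1.75% of kept probes, and 0 were higher by that fold, against 2.89%. In either direction 4.64% of kept probes passed it, and this contrast too served to choose 7 of the genes. Enpp6 was the nearest gene inside at 1.33-fold lower, and the brighter Ndrg1 probe lay outside at 1.13-fold. The groups were apart in 1 gene, Tmem125, against 21.8% of probes with CRST+RS5 lower. The median without CRST replicate 2 was 0.018 with a range of -0.14 to 0.42, and without CRST replicate 1 it was -1.02. CRST arrays enter both comparisons, so a high value on one of them raises the first difference and lowers the second.

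The difference CRST+RS5 minus CON does not use the CRST arrays, although its SE draws on the spread within all 3 groups. Its median was -0.15 and its range -0.30 to 0.087, with 2 of 8 genes (Ugt8a and Trf) at least 1.2-fold lower, against 1.31% of kept probes. None was higher by that fold, against 2.57%, and 3.88% of kept probes passed it in either direction. Both CRST+RS5 arrays were below both CON arrays in 5 genes (Ugt8a, Trf, Bcas1, Prr18 and Enpp6), against 22.2% of kept probes. This difference is the sum of both choosing contrasts, and it is given without a test. On replicate 1 of CRST+RS5 the deviation from the CON mean ran from -0.45 for Ugt8a to -0.023 for Ndrg1, and on replicate 2 from -0.25 for Enpp6 to 0.20 for Ndrg1.

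**Figure D2:**
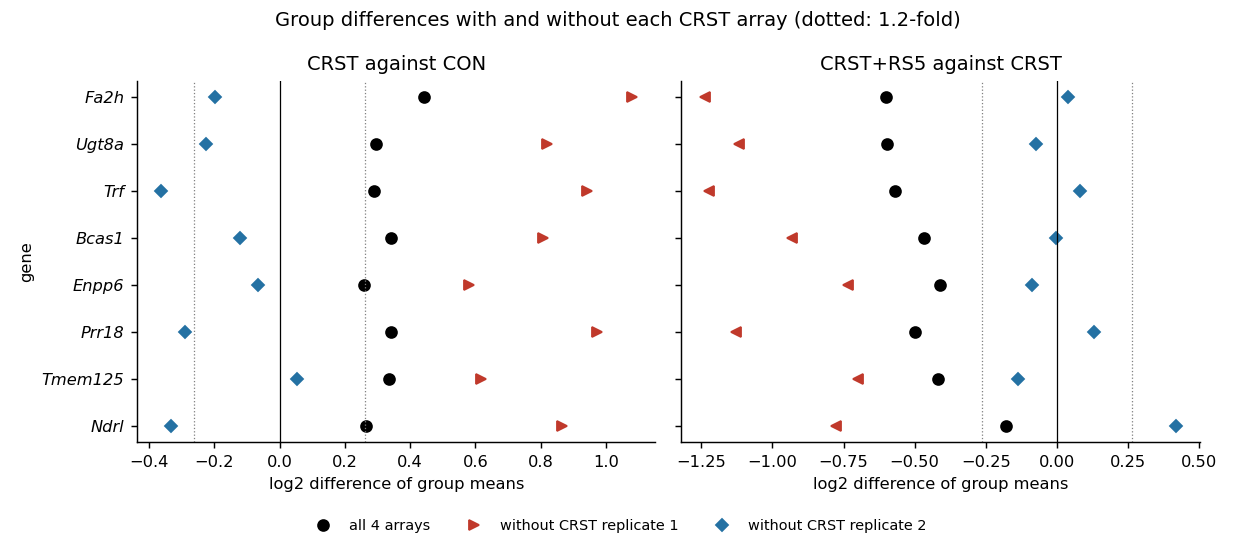
Log2 difference of group means for each gene (rows) in CRST against CON and CRST+RS5 against CRST, with all 4 arrays (circles), without CRST replicate 1 (triangles) and without CRST replicate 2 (diamonds), and dotted lines at 1.2-fold. Without CRST replicate 2, 7 of 8 genes lie below 0 in the left panel, and 4 of 8 lie above 0 in the right panel.

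Over all kept probes, limma with Benjamini-Hochberg adjustment passed 0 probes in each of the 3 comparisons at an adjusted p of 0.05. An unadjusted p under 0.05 was reached by 428 probes (3.27%) in CRST against CON, 1107 (8.46%) in CRST+RS5 against CRST and 1045 (7.99%) in CRST+RS5 against CON. With a block for the replicate number, 34 probes passed in CRST+RS5 against CRST, none of them a probe of the 8 genes, and 0 passed in the other comparisons.

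The difference between the CRST arrays is also described without a test. It is not independent of the choice of genes, since without CRST replicate 2 no gene was 1.2-fold higher in CRST than in CON or 1.2-fold lower in CRST+RS5 than in CRST. CRST replicate 2 exceeded CRST replicate 1 by 1.31 for Trf, 1.28 for Fa2h, 1.26 for Prr18 and 1.198 for Ndrg1 on the log2 scale. Ugt8a followed at 1.04, Bcas1 at 0.93, Enpp6 at 0.65 and Tmem125 at 0.56. As folds these ran from 1.48 to 2.47. Among 13083 probes ordered from the highest difference, Trf had rank 13 and Tmem125 rank 108.

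A difference of at least 2-fold was present in 5 of 8 genes (Trf, Fa2h, Prr18, Ndrg1 and Ugt8a), against 0.237% of kept probes, of at least 1.5-fold in 7 of 8, against 0.726%, and of at least 1.2-fold in 8 of 8, against 5.45%. CRST replicate 2 was the highest of the 6 arrays in 8 of 8 genes, against 19.2% of probes. In 7 of 8 genes CRST replicate 2 was above both CON arrays while CRST replicate 1 was below both, against 9.68% of probes. Nothing is read from these shares, because the choice of the genes rested on CRST replicate 2. The lowest array was CRST+RS5 replicate 1 in 4 genes, CRST replicate 1 in 2, and CRST+RS5 replicate 2 and CON replicate 2 in 1 each.

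The same difference between replicates in CON ran from -0.33 for Tmem125 to 0.15 for Ndrg1. In CRST+RS5 it ran from -0.19 for Enpp6 to 0.40 for Fa2h, with 0.31 for Trf and 0.30 for Ugt8a. The lipid enzymes and transferrin were thus the genes whose CRST+RS5 arrays were farthest apart. Over all kept probes the 95th percentile of the CRST difference was 0.271 and the 99th was 0.527, and the 8 genes were all above the latter.

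**Figure D3:**
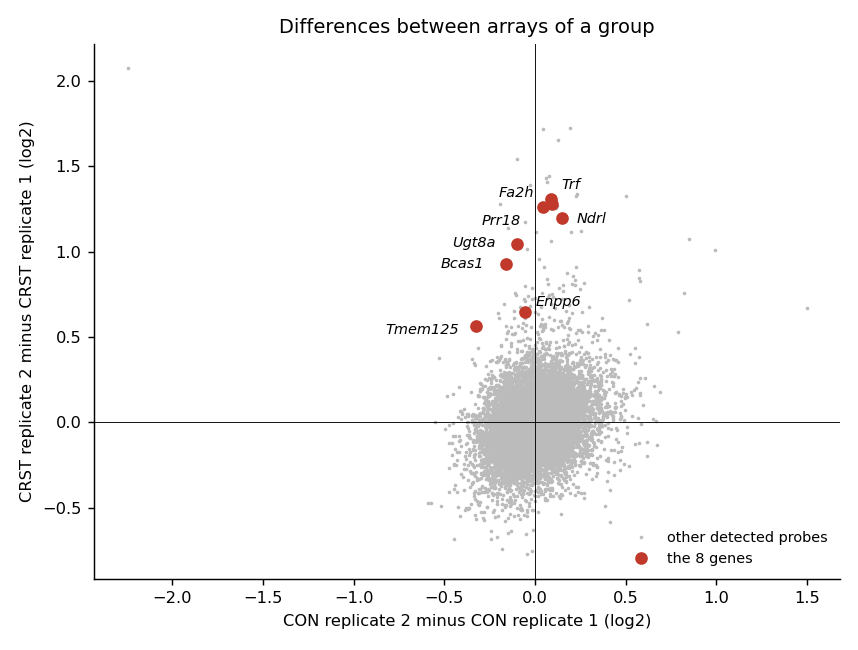
Difference between replicate 2 and replicate 1 in CON (horizontal axis, log2) and in CRST (vertical axis, log2) for the 13083 kept probes, with the 8 genes in red. The genes lie between 0.56 and 1.31 on the CRST axis but between -0.33 and 0.15 on the CON axis.

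There were 31 probes with a CRST difference of at least 2-fold, of which 5 belong to the 8 genes, 13 to the structural myelin list, and 6 carry no name in the tables. The probe with the highest difference was that of Ttr at 2.07, the carrier of thyroxine made by the choroid plexus, which was named after its value was seen. Above the highest of the 8 genes there were 12 probes, 9 with a name, and 7 of these were probes of structural myelin genes. Mobp had the highest difference of them at 1.65, followed by Mal at 1.44.

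**Figure D4:**
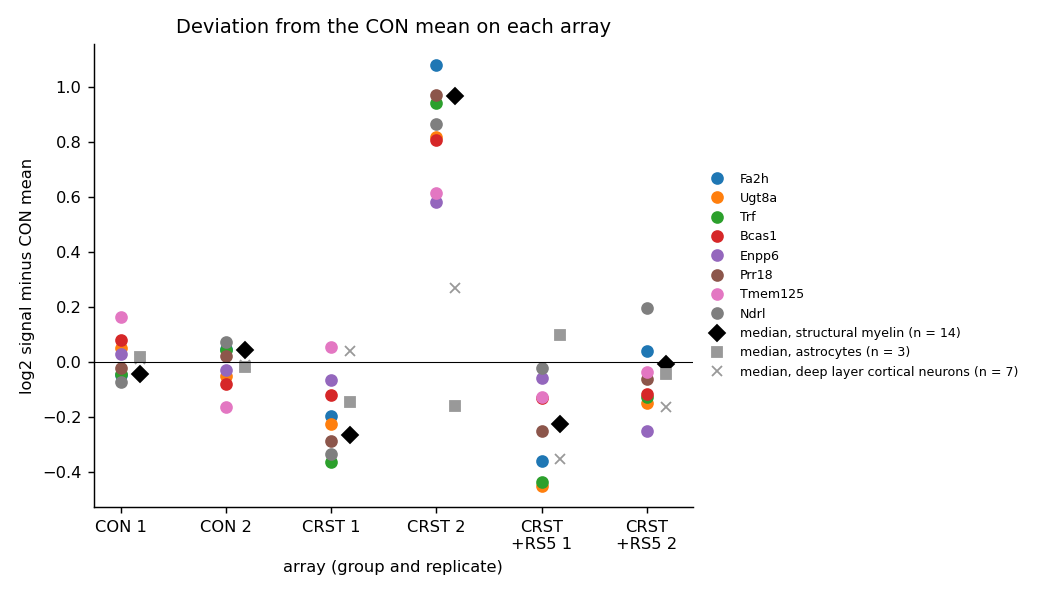
Log2 signal minus the CON mean on each of the 6 arrays for the 8 genes (coloured circles), with the list medians of structural myelin genes (diamonds, n = 14), astrocyte genes (squares, n = 3) and deep layer cortical neuron genes (crosses, n = 7). On CRST replicate 2 the genes lie at 0.58 to 1.08, beside medians of 0.97 for structural myelin, 0.27 for deep layer neurons and -0.16 for astrocytes.

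Structural myelin genes, which encode components of the myelin sheath, were the list that followed the 8 genes most closely. Of 22 genes listed, 14 were named and detected, and 14 of 14 were highest on CRST replicate 2, against 19.2% of kept probes. The median deviation of these 14 genes from the CON mean was -0.26 on CRST replicate 1 and 0.97 on CRST replicate 2. In CRST minus CON, 13 of 14 were at least 1.2-fold higher, against 0.78% of kept probes, with a median of 0.32. In CRST+RS5 minus CRST, 13 of 14 were at least 1.2-fold lower, against 1.75%, with a median of -0.45. Without CRST replicate 2, 14 of 14 had a CRST value below the CON mean. These genes carry names because they were selected on these arrays, so their direction is no independent evidence.

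Mbp, the myelin basic protein, had log2 signals of 14.19 and 14.31 in CON, 13.97 and 15.24 in CRST, and 14.04 and 14.31 in CRST+RS5. Mog and Mag, which encode glycoproteins of the myelin sheath, differed by 1.28 each between the CRST arrays. CRST replicate 2 was the highest array for Mbp, Mog and Mag, as for the 8 genes.

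The named probes with a profile most like the mean of the 8 genes were ranked by the root mean square difference of centred log2 values over 6 arrays. Among the 6 closest, the choline transporter Slc44a1 stood at 0.0711. The 2 probes of Cnp, a myelin phosphodiesterase, stood at 0.0834 and 0.0896, Mbp at 0.0917 and Pdlim2 at 0.0967. No unnamed probe was as close as these 6, and 14 unnamed and 27 named probes were as close as Tmem125, the farthest of the 8 genes.

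Of the other genes of the maturation list, Adamts4, Cryab, Evi2a, Rhog and Arsg were all highest on CRST replicate 2, against 19.2% of kept probes. The CRST arrays of these 5 genes differed by 0.55 to 0.74, values that lay near those of Enpp6 and Tmem125. At least 1.2-fold, 1 of 5 was higher in CRST than in CON (Arsg, 0.33), against 0.78% of kept probes. By that fold 5 of 5 were below the CRST mean in CRST+RS5, with a median of -0.34, against 1.75%. Their names also came from selection on these arrays, so these counts are no independent evidence. Among precursor genes 1 of 12 carried a name, Bmp4, at -0.16 in CRST minus CON and 0.70 in CRST+RS5 minus CRST.

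The other named lipid genes, Sphk1, Scd1 and Elovl5, had another array pattern. They carry names because they were selected on these arrays. Of 25 genes of sphingolipid and galactolipid metabolism, Sphk1, the sphingosine kinase, was the 1 named besides Fa2h and Ugt8a. Its log2 signal was 8.93 and 9.21 in CON, 8.51 and 8.92 in CRST, and 9.91 and 11.48 in CRST+RS5. It was thus highest in CRST+RS5, where neither Fa2h nor Ugt8a was above the higher CON array.

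Of 34 genes of cholesterol and fatty acid synthesis, 2 were named, the desaturase Scd1 and the elongase Elovl5. Scd1 had 11.34 and 11.61 in CON, 11.70 and 11.71 in CRST, and 11.84 and 12.98 in CRST+RS5. Elovl5 had 12.87 and 12.83 in CON, 12.78 and 12.78 in CRST, and 12.82 and 14.51 in CRST+RS5. The CRST arrays differed by 0.0078 for Scd1 and -0.0023 for Elovl5, and both genes were highest on CRST+RS5 replicate 2. On that array the 8 detected genes of the olfactory mucosa and bulb list had a median deviation of 1.39 from the CON mean. The part of that tissue in the lipid values was not tested.

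Of 19 iron genes, 2 were named, Trf and the lactoferrin gene Ltf, and Ltf was not kept by the detection filter. For the other genes of these lipid and iron lists the arrays were not analysed here, because their probes carry no name.

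Markers of other cells were read on the same arrays. The 3 named astrocyte genes of 17 (Aqp4, Gjb6 and Aldh1l1) had a median difference of 0.081 between the CRST arrays. For deep layer cortical neurons, 7 genes of 18 were named and detected, with a median difference of 0.20. On CRST replicate 2, 4 of 7 were highest, Tle4 at 0.54 among them, against 19.2% of kept probes. The summed linear signal of the 7 genes was 18318 and 17210 in CON, 16950 and 22078 in CRST, and 13648 and 16645 in CRST+RS5. That of the 14 structural myelin genes was 68943 and 75332 in CON, 60954 and 134167 in CRST, and 63860 and 74183 in CRST+RS5. In CRST+RS5 minus CRST, 7 of 7 deep layer neuron genes were at least 1.2-fold lower, with a median of -0.41, against 1.75% of kept probes. These genes too carry names because they were selected on these arrays, so the count is no independent evidence. Their part in the values of the 8 genes was not tested.

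Meningeal fibroblast genes had their highest values in CRST+RS5. Of 18 genes, 16 were named and detected, and 11 were at least 1.2-fold lower in CRST than in CON, against 0.864% of kept probes. In CRST+RS5 against CRST, 16 of 16 were at least 1.2-fold higher, against 2.89%. They carry names because they were selected on these arrays at that fold, so these counts are no independent evidence. Their median deviation from the CON mean was -0.55 and -0.082 on the CRST arrays and 0.70 and 0.81 on the CRST+RS5 arrays. Their summed linear signal was 12813 and 18855 in CON, 9231 and 14251 in CRST, and 27877 and 28708 in CRST+RS5. CRST replicate 1 was thus the lowest array for the meningeal sum and for the myelin sum. Between the CRST arrays the median difference of the meningeal genes was 0.40, in the direction of the 8 genes, with 1.08 for Slc13a4 and 1.01 for Ogn. The 5 detected genes of microglia and border macrophages had a median difference of -0.23 between the CRST arrays, and the 4 of upper layer cortical neurons one of -0.072. The upper layer values ran from -0.26 for Rgs8 to 0.50 for Cdh13, which was highest on CRST replicate 2. Whether the makeup of the dissected tissue entered the values of the 8 genes was not tested.

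The difference between the CRST arrays was present under each way of processing the signals. It ran from 0.68 to 1.44 with median scaling, from 0.99 to 1.75 without normalization, and from 0.80 to 1.35 after background correction by neqc. The values without normalization also carry the difference in overall brightness between the 2 CRST arrays. In the authors' own log2 table the difference ran from 0.57 to 1.29. That table is also normalized by quantiles and nearly equals the main values, so it is no separate check. CRST replicate 2 was the highest array in 8 of 8 genes each time.

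**Figure D5:**
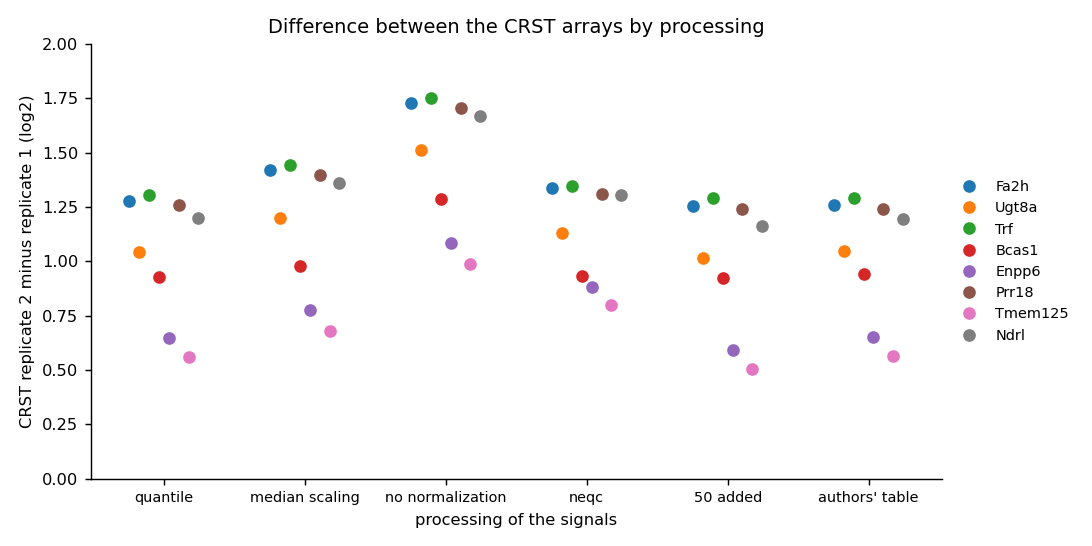
Log2 difference between CRST replicate 2 and CRST replicate 1 for the 8 genes (vertical axis from 0) under 6 ways of processing the deposited signals (horizontal axis). The authors' table is also normalized by quantiles and nearly repeats the first column. The values lie above 0.5 in every column, with medians of 1.12 for quantile normalization, 1.28 for median scaling, 1.59 without normalization and 1.22 for neqc.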

How the data were processed

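GenomeStudio was used by the authors to read 6 mouse Ref-8 arrays, and the deposited values are average signal intensities, 1 per probe and array. A detection p-value was deposited for each of them. Whether background was subtracted is not given in the sources used here. The authors also deposited a log2 table normalized by quantiles, used as an alternative. Intensities were converted to log2 and normalized by quantiles over 6 arrays in R 4.3.3 with limma 3.58.1, and correlated with the authors' table at r = 0.999996 or more. A probe was kept if both arrays of some group had a detection p under 0.05, which left 13083 of 25697.

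Groups followed the sample labels. Differences of group means were read against the study's criterion of 1.2-fold, and limma was fitted to all kept probes and all 3 groups with Benjamini-Hochberg adjustment. This step was tested on simulated data. SEs are limma's moderated values, from a spread pooled over the 3 groups. The methods describe 2 independent sets of the 3 groups, but neither they nor the labels tie a replicate number to a set, and the fit has no block for the number. The p-values set each difference against the spread between pools, which does not give the spread between animals.

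The study's tables of selected genes named 899 probes with 884 symbols, of which 851 matched RefSeq of GRCm38.p6 by accession. Other probes stayed unnamed. The 8 genes and 12 lists were chosen with earlier results of these data known. Where Ndrg1 had a probe under each spelling, the brighter was used. Further genes named were the myelin genes Mbp, Mog and Mag, those of the 6 named probes closest in profile, and up to 4 named genes per list by the size of CRST+RS5 minus CRST. Some genes that this rule names are not reported here. Outside this rule, Mobp, Ttr, Evi2a and Tle4 were named with their values in view. The number of arrays limits the precision.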

Additional observations from a re-analysis of the deposited data

How the results depend on the processing

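Without CRST replicate 2 the median of the 8 genes turned to -0.21 in CRST minus CON and 0.018 in CRST+RS5 minus CRST. Over arrays left out in turn the medians ran from -0.21 to 0.84 and from -1.025 to 0.018, and in CRST+RS5 minus CON from -0.19 to -0.089. The genes at 1.2-fold in either direction numbered 3 to 8, 1 to 8 and 0 to 3. Without CRST replicate 2, the 3 in the first comparison were lower and the 1 in the second was higher. With an array left out more of all kept probes also reached that fold, as given below. Of the single genes, CRST minus CON ran from -0.20 to 1.08 for Fa2h, -0.23 to 0.82 for Ugt8a, -0.12 to 0.81 for Bcas1, -0.36 to 0.94 for Trf, -0.29 to 0.97 for Prr18 and -0.33 to 0.865 for Ndrg1. CRST+RS5 minus CRST ran from -1.24 to 0.039 for Fa2h, -1.22 to 0.082 for Trf and -1.13 to 0.13 for Prr18. With the arrays numbered 1 alone, a choice made after seeing the data, the median of CRST minus CON was -0.23. At 1.2-fold, 3 genes were then lower in CRST than in CON and 1 was higher in CRST+RS5 than in CRST. In CRST+RS5 against CON, 4 were lower. With the arrays numbered 2 alone, the median of CRST minus CON was 0.88, and 0 genes were at 1.2-fold in CRST+RS5 against CON. These settings differ in which arrays were kept, and the cause of the changes was not tested.

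Probes at 1.2-fold numbered 215, 607 and 508 in the 3 comparisons. They numbered 1398, 2040 and 1928 after neqc, 526 and 1827 without normalization in the first and second, 1427 with median scaling in the second, 130 with 50 added in the first, and 372 to 823, 863 to 1223 and 567 to 1085 with an array left out. Probes higher and lower were 102 and 113, 378 and 229, and 336 and 172. With median scaling they were 244 and 65, 211 and 1216, and 219 and 430, and the median of all probes in the second was -0.11, against -0.012 with quantile normalization. Without normalization they were 492 and 34, 188 and 1639, and 266 and 291. With neqc they were 974 and 1066 in the second and 927 and 1001 in the third. Bcas1 moved to -0.24 with median scaling and -0.22 without normalization in CRST+RS5 minus CON. The other 118 single-gene values under settings that kept all arrays moved by less than the spread between replicates.

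Probes past an adjusted p of 0.05 in limma numbered 1, 19 and 13 without normalization, and 0 to 14, 0 to 31 and 0 to 11 with an array left out. The highest of these came without CRST replicate 1 in the first and second and without CRST+RS5 replicate 1 in the third. Arrays of the same number correlated in their deviations at r = 0.247, 0.259 and 0.0509. These values cannot show whether such arrays came from the same set, and the main fit has no block for the number. In a fit with a block for the replicate number, 34 probes were past it in CRST+RS5 against CRST.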
